A study of Mus musculus with 30 samples.

Results

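The 10 genes are S100a4, S100a6, S100a10, S100a11, S100a13, Lgals1, Lgals3, Anxa1, Anxa2 and Ahnak. All but Ahnak are of the S100, galectin and annexin families, and Ahnak encodes a scaffold protein that binds the complex of S100a10 and Anxa2. They were taken by gene symbol, and all 10 are listed in each of the 3 deposited count tables, of 21983 genes in the table of thymus DP and CD4 SP cells and 46095 genes in each of the other tables (thymus CD8 SP, and spleen CD4 with CD8). The list was drawn up with the difference between knockout and wild-type cells in view, so that difference is given below as a description and without a p-value. All mice were of the strain C57BL/6. The wild-type (WT) groups are labelled only as wild type, and the knockout (CKO) groups carried CD4-Cre and a floxed Prmt5 gene (CD4-Cre+ PRMT5fl/fl). CD4-Cre acts from the double-positive (DP) stage of thymocytes onwards, so that the CD4 and the CD8 lineage both inherit the deletion. No group with CD4-Cre alone was analysed here, and the labels read here state no ages. Bulk RNA sequencing covered 5 populations sorted by flow cytometry, each with 3 WT and 3 CKO libraries: DP, CD4 single-positive (SP) and CD8 SP thymocytes, and spleen CD4 and CD8 T cells. Libraries held between 11865646 and 35353441 counted reads.

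S100 proteins are small proteins with EF-hand motifs that mostly work as dimers. Most, though not all, are calcium sensors that change the binding of partner proteins when calcium enters a cell. Annexins bind acidic phospholipids of membranes in the presence of calcium. A dimer of S100a10 joins Anxa2 molecules into a membrane-bound complex to which the very large scaffold protein Ahnak binds, and S100a11 is a known partner of Anxa1. Galectins bind beta-galactoside sugars on glycoproteins and can act inside or outside the cell. In T cells many of these genes are known to be low in naive cells and higher in effector, memory and regulatory cells, and several are also abundant in macrophages and other myeloid cells.

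All coordinates are on GRCm38, from GENCODE M21. The 5 S100 genes lie on chromosome 3 and on the plus strand: S100a13 at chr3:90514435-90524581, S100a4 at chr3:90603771-90606045, S100a6 at chr3:90612882-90624181, S100a11 at chr3:93520488-93526287 and S100a10 at chr3:93555080-93564643. S100a4 and S100a6 are neighbours with 6.84 kb between them, and S100a11 and S100a10 are 28.8 kb apart. Lgals1 lies at chr15:78926725-78930465, Lgals3 at chr14:47367751-47386160, Anxa1 on the minus strand at chr19:20373428-20390944, Anxa2 at chr9:69453620-69491795 and Ahnak at chr19:8989284-9076914. Lgals3 is on the chromosome that carries Prmt5, 7.12 Mb from it.

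RefSeq promoter windows were found for 8 of the 10 genes, all but S100a10 and Lgals1. The 4 printed here show how unlike the start regions of these genes are: S100a4, S100a6 and Ahnak, which differed widely between CKO and WT spleen CD8 cells, and S100a11, which had the smallest difference there. Each window is 238 bases long, from 250 to 13 bases before the RefSeq start on GRCm38.p6, and reads 5′ to 3′ on the plus strand: chr3:90603520-90603757 for S100a4, chr3:90612644-90612881 for S100a6, chr19:8989034-8989271 for Ahnak and chr3:93520246-93520483 for S100a11. Capitals mark every match, on either strand, to 1 of 6 motifs.
S100a4: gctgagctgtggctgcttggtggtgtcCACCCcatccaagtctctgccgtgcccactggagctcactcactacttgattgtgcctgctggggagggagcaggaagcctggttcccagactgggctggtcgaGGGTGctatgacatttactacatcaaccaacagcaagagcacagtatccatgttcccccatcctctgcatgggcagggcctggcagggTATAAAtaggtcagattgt
S100a6: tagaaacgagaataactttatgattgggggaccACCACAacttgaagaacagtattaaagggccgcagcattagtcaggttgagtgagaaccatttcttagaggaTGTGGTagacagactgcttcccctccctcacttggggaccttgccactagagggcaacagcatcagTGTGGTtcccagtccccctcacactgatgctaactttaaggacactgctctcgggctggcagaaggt
Ahnak: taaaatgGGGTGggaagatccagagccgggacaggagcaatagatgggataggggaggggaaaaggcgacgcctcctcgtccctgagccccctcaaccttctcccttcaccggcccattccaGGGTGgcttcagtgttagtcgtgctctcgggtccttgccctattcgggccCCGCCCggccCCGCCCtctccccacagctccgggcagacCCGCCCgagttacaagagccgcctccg
S100a11: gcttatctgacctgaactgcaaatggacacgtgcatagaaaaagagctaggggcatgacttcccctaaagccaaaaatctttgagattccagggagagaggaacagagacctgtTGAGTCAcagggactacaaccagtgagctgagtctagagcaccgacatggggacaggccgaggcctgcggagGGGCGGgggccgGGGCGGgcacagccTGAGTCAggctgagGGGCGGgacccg

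The motifs searched were TATAAA (the TATA box), GGGCGG (the GC box of Sp factors), CACCC (Krüppel-like factors), TGANTCA (AP-1), TGTGGT (Runx) and AGGTGTGA (T-box factors). Among 32851 RefSeq windows of the same length, 12% held TATAAA, 31% GGGCGG, 50.3% CACCC, 6.54% TGANTCA, 13.5% TGTGGT and 1.07% AGGTGTGA. The S100a4 window held 1 TATAAA, which begins 31 bases before the start, and 2 CACCC. In the S100a6 window the TGTGGT motif matched 3 times. Ahnak, with the highest GC content of the 4 (65.1%), had 3 GGGCGG and 2 CACCC matches. S100a11 had 3 GGGCGG and 2 TGANTCA matches, the latter beginning 136 and 38 bases before the start. No window held AGGTGTGA, and no matches of different motifs overlapped. These letters describe the windows and do not show that a factor binds there.

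Levels are counts-per-million values (CPM) over the reads counted in the library, and log2 differences come from edgeR fits that also scale libraries by TMM. The Prmt5 count, given per gene and not per exon, was lower in all 3 CKO than in all 3 WT libraries of each population, with group means of 44.3 ± 0.74 CPM in WT and 22.5 ± 3.24 CPM in CKO spleen CD4 cells and 63.7 ± 2.73 and 35.5 ± 6.16 CPM in spleen CD8 cells (SD, n = 3). In thymus CD8 SP cells the difference was smaller, at 144 ± 8.52 and 116 ± 1.30 CPM. Coreceptor counts matched the spleen labels, with Cd8a at 2.31 to 4.61 CPM in WT CD4 and 1077 to 1219 CPM in WT CD8 libraries. The thymus libraries labelled CD4 still held Cd8a at 1134 to 1543 CPM in WT, against 2605 to 2715 CPM in WT DP libraries. All spleen libraries read as female by their Xist and Ddx3y counts. In thymus CD8 SP the 3 WT libraries and CKO 1 read as male and CKO 2 and CKO 3 as female, and in thymus DP and CD4 SP cells WT 18 and CKO 17 read as male.

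In WT cells the 10 genes spanned a wide range of levels and their order differed between thymus and spleen. Per kilobase of exon, Lgals1 was highest in WT DP thymocytes at 187 ± 22.8 CPM per kb, followed by Anxa2 at 113 ± 12.5 and S100a10 at 53.8 ± 4.73 (SD, n = 3). S100a13 stood at 30.9 ± 0.16 and S100a11 at 8.85 ± 3.66 CPM per kb. Lgals3, Ahnak and S100a6, at 0.55 ± 0.21, 0.53 ± 0.15 and 0.40 ± 0.11, did not differ from each other beyond their spread. In WT thymus CD8 SP cells Lgals1 (83.9 ± 10.2 CPM per kb) and Anxa2 (73.4 ± 2.36) again led, with overlapping ranges of mean ± SD, ahead of S100a10 at 35.8 ± 0.97. In WT CD4 SP thymocytes Lgals1 led at 104 ± 16.2 CPM per kb, and S100a10 (55.2 ± 3.25) and Anxa2 (52.3 ± 10.8) followed without differing beyond their spread.

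The spleen order was different. S100a10, at 88.3 ± 4.99 CPM per kb in WT CD4 and 93.6 ± 7.19 in WT CD8 cells, and S100a11, at 86.2 ± 19.6 and 83.3 ± 8.75, led both populations and were not separable from each other by their spread. Lgals1 followed at 54.1 ± 7.48 in CD4 and 48.9 ± 3.80 in CD8 cells. Ahnak reached 37.9 ± 4.75 in CD4 and 48.9 ± 2.70 in CD8 cells, against 0.53 ± 0.15 in DP thymocytes. Anxa2 went the other way, at 8.85 ± 1.29 in spleen CD4 and 7.74 ± 0.90 in spleen CD8 cells against 113 ± 12.5 in DP thymocytes. Lgals3 (3.93 ± 1.09 and 2.60 ± 0.43) and Anxa1 (1.14 ± 0.61 and 0.47 ± 0.15) were the lowest of the 10 in both spleen populations. The 3 tables were counted separately and list different numbers of genes, so levels were set side by side across them without a test.

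**Figure D1:**
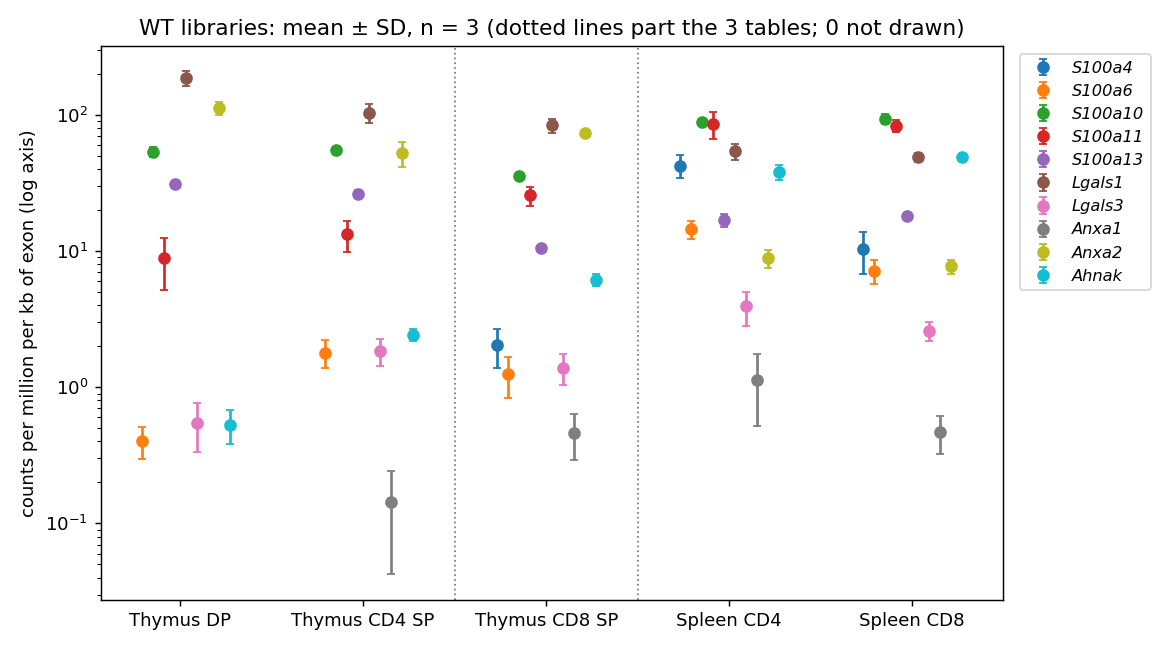
Levels of the 10 genes in WT libraries as CPM per kilobase of exon, on a log axis, by population, with points for the mean and bars for the SD of 3 libraries; dotted lines separate the 3 count tables, and values of 0 are not drawn. Lgals1 is highest in the 3 thymus populations, with Anxa2 next in DP and CD8 SP cells, and S100a10 and S100a11 are highest in the spleen.

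S100a4 had 0 counts in all 12 libraries of the thymus DP and CD4 SP table. A count of 0 over 3 libraries allows up to 0.0607 CPM in the WT DP group, by counting error alone. In GENCODE M21 the gene model Gm42674 lies on the same strand and shares 51.7% of the exon bases of S100a4. Gm42674 is listed in 1 of the 3 tables, that of thymus DP and CD4 SP, where it too has a summed count of 0. No source used here names the annotation behind the counts, so the 0 of S100a4 there is read as a listed value and not as a measured level. In the table of thymus CD8 SP cells, S100a4 had 1.18 ± 0.38 CPM in WT and 1.41 ± 0.28 CPM in CKO libraries (SD, n = 3).

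The difference between WT DP and WT CD4 SP thymocytes was fitted within their table. The same WT libraries entered the CKO comparisons, which are treated as those on which the genes were chosen. The comparison is thus given as a description without p-values. S100a6, Lgals3 and Ahnak rose from DP to CD4 SP, and Lgals1 and Anxa2 fell. In a fit to all 12 libraries of the table the falls kept their size and missed the threshold, with log2 differences of -0.86 for Lgals1 and -1.12 for Anxa2. Both passed in the other 12 of 13 alternatives. The 3 genes tested that did not pass were S100a10, S100a11 and S100a13. Of 8 genes tested 5 were past the threshold, a Benjamini-Hochberg adjusted p of 0.05 in edgeR's quasi-likelihood test. That test called 39.8% of all 11826 genes, 21.7% as higher and 18.1% as lower in CD4 SP cells. S100a6 was among the 5 and passed the filter on low counts only with the CD4 SP libraries. The CD4 SP values lay wholly above the DP values for 3 of the 8 genes and wholly below for another 3, against 27.6% and 24.1% of all genes. Anxa1 was too low to test, with 0 counts in all 3 DP libraries (up to 0.0607 CPM allowed) and 0.14 to 0.72 CPM in the CD4 SP libraries.

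Ahnak rose from 8.43, 13.9 and 9.42 CPM in WT DP libraries 15, 18 and 24 to 54.1, 45.9 and 45.9 CPM in the WT CD4 SP libraries of the same numbers. The groups did not overlap, and the log2 difference was 2.20 ± 0.17 (SE). S100a6 stood at 0.62, 0.38 and 0.65 CPM in DP and 2.56, 2.97 and 1.83 CPM in CD4 SP cells, a log2 difference of 2.10 ± 0.36. In the DP comparison of CKO and WT it was too low to test, so it entered this fit through the CD4 SP libraries, where it is higher. Both of its groups are low, between 5 and 53 reads per library. Lgals3, whose product is the only galectin with a collagen-like tail joined to its sugar-binding domain, stood at 0.67, 0.92 and 1.45 CPM in DP and 2.95, 4.31 and 2.99 CPM in CD4 SP cells, without overlap (log2 difference 1.72 ± 0.33).

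Anxa2 moved in the opposite direction. Its counts were 378, 414 and 470 CPM in WT DP libraries and 180, 165 and 241 CPM in WT CD4 SP libraries, without overlap (log2 difference -1.12 ± 0.14). Lgals1 fell from 146, 173 and 187 CPM to 85.4, 85.5 and 111 CPM (log2 difference -0.86 ± 0.13). S100a10, the partner of Anxa2, was level, at 59.0 to 70.3 CPM in DP and 64.1 to 71.4 CPM in CD4 SP cells (log2 difference 0.02 ± 0.11). Beside these falls, the summed count of 10 DP thymocyte markers was 7052 to 8180 CPM in WT DP and 2216 to 4057 CPM in WT CD4 SP libraries, and library WT 24 was the highest of the 3 CD4 SP libraries for that sum and for both Anxa2 and Lgals1. The part of remaining DP cells in the CD4 SP values was not tested.

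In WT spleen 4 of the 10 genes were past the threshold between CD4 and CD8 cells, against 31.9% of 14131 genes tested (15.3% higher and 16.5% lower in CD8 cells). S100a4, S100a6 and Anxa1 were lower in CD8 than in CD4 cells, and Ahnak was higher. These WT libraries are among those on which the genes were chosen, and choosing genes that are high in CKO against WT CD8 cells favours low WT CD8 values, so the comparison is given as a description without p-values. The values of S100a4 and S100a6 lay wholly below in CD8 cells, as did those of 26.8% of all genes, and those of Ahnak wholly above, as did 18.9%. S100a4, a regulator of non-muscle myosin and cell motility, had 19.3, 27.5 and 27.4 CPM in WT CD4 libraries 67, 70 and 71 and 4.52, 8.40 and 5.25 CPM in the WT CD8 libraries (log2 difference -1.99 ± 0.21). S100a6 had 16.8, 19.7 and 22.6 CPM in CD4 and 8.90, 12.04 and 8.50 CPM in CD8 cells (log2 difference -0.96 ± 0.15).

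Ahnak had 684, 862 and 718 CPM in WT CD4 and 926, 1032 and 964 CPM in WT CD8 cells (log2 difference 0.41 ± 0.08). Anxa1, known for limiting inflammation, had 1.499, 5.08 and 3.35 CPM in CD4 and 1.25, 1.84 and 1.02 CPM in CD8 cells (log2 difference -1.23 ± 0.40). The groups of Anxa1 overlapped, and without WT CD4 library 70 its log2 difference was -0.78 and no longer past the threshold. For Lgals3 the log2 difference was -0.55 ± 0.22 and did not pass, and with the replicate number as a block it was -0.53 and passed. S100a10, S100a11, S100a13, Lgals1 and Anxa2 had differences between -0.15 and 0.14 that did not pass.

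Regulatory T cells and myeloid cells are among the known sources of these transcripts, and both marker lists were higher in WT CD4 libraries: the summed count of 9 regulatory T cell markers was 845 to 1002 CPM in CD4 and 156 to 172 CPM in CD8 libraries, and that of 20 myeloid markers was 112 to 154 and 58.2 to 79.6 CPM. Their part in the S100a4, S100a6 and Anxa1 differences was not tested. In bulk libraries fewer cells of a type and less RNA per cell cannot be told apart, which holds for every comparison here.

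In spleen CD8 cells all 10 genes had a positive log2 difference between CKO and WT, and 8 were past the threshold: S100a4, S100a6, S100a10, S100a13, Lgals1, Lgals3, Anxa2 and Ahnak. The groups of the same 8 did not overlap. In the same fit 16.1% of 13917 genes were called in either direction and 9.83% as higher, and 20.1% had all CKO libraries above all WT libraries. Since the genes were chosen with this contrast in view, nothing is read from the excess. The median log2 difference of the 10 was 1.26, against -0.0125 over all genes tested.

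S100a6, a calcium sensor known to be linked to proliferating cells, had 8.90, 12.04 and 8.50 CPM in WT CD8 libraries 67, 70 and 71 and 57.1, 37.7 and 49.0 CPM in CKO libraries 65, 68 and 72. Its lowest CKO value lay far above its highest WT value, and the log2 difference was 2.26 ± 0.17 (SE). S100a4 had 4.52, 8.40 and 5.25 CPM in WT and 33.8, 13.8 and 22.1 CPM in CKO cells (log2 difference 1.91 ± 0.30). Its 3 CKO values spread widely, from 13.8 in CKO 68 to 33.8 in CKO 65, while staying above WT.

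S100a10 and S100a13 differed less. S100a10 had 123, 106 and 111 CPM in WT and 189, 128 and 163 CPM in CKO libraries (log2 difference 0.47 ± 0.12), so that CKO 68 came close to WT 67. S100a13, which is known for carrying growth factors and interleukin 1 alpha out of cells by a non-classical route, had 13.02, 13.5 and 12.3 CPM in WT and 19.6, 15.3 and 18.7 CPM in CKO cells (0.44 ± 0.12). S100a11 was the least different of the family, at 47.3, 42.0 and 38.4 CPM in WT and 62.8, 51.2 and 46.3 CPM in CKO cells (0.30 ± 0.11), with overlapping groups. The neighbours S100a11 and S100a10 thus had small differences and the neighbours S100a4 and S100a6 large ones. S100a13, 79.2 kb from S100a4, had a small difference, so nearness to S100a4 did not go with a large one there. These are single values without a test of position.

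Both galectins were higher in CKO CD8 cells. Lgals3 had 4.63, 5.71 and 4.15 CPM in WT and 28.3, 17.2 and 26.5 CPM in CKO cells (log2 difference 2.29 ± 0.20), a difference not separable from that of S100a6 by its error. Lgals1, which can trigger death of activated T cells when secreted, had 45.3, 46.8 and 40.3 CPM in WT and 138, 105 and 134 CPM in CKO cells (1.49 ± 0.11). No CKO value of either gene lay near its WT range.

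Of the membrane-binding genes, Anxa2 had 32.8, 26.9 and 27.0 CPM in WT and 81.2, 58.6 and 71.97 CPM in CKO CD8 cells (log2 difference 1.26 ± 0.12). Ahnak had 926, 1032 and 964 CPM in WT and 2092, 2072 and 2486 CPM in CKO cells (1.16 ± 0.08), the smallest error of the 10 genes. The complex of S100a10, Anxa2 and Ahnak was thus unequally changed in its transcripts, with S100a10 at 0.47 and the others above 1. Anxa1 had 1.25, 1.84 and 1.02 CPM in WT and 3.08, 1.55 and 5.39 CPM in CKO cells (1.26 ± 0.43), where CKO 68 lay inside the WT range and between 27 and 137 reads were counted per library.

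**Figure D2:**
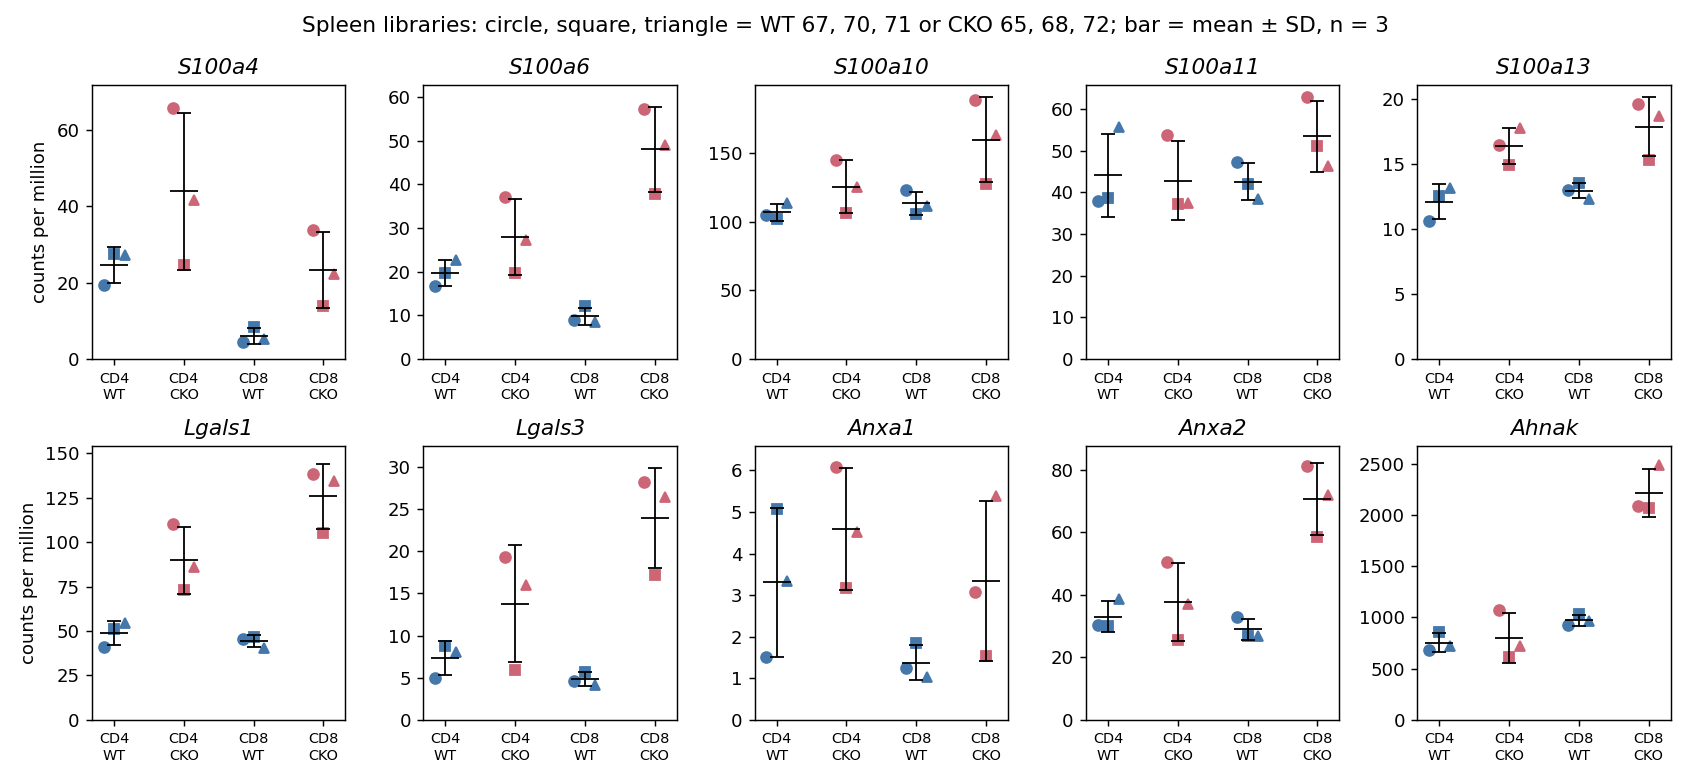
CPM of each gene in the 12 spleen libraries, with a circle, square or triangle for WT libraries 67, 70 and 71 (blue) and CKO libraries 65, 68 and 72 (red), a long line for the mean and bars for the SD of 3 libraries. In CD8 cells 8 genes have all CKO points above all WT points, and the square, CKO 68, is the lowest CKO point for most genes.

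Spleen CD4 cells showed a smaller pattern with the same sign for 9 of the 10 genes, and 2 genes were past the threshold, S100a13 and Lgals1. The fit called 14.2% of 14292 genes in either direction and 8.53% as higher, and the median log2 difference was 0.46 for the 10 genes and -0.0057 for all genes tested. Lgals1 had 41.2, 50.9 and 54.2 CPM in WT CD4 libraries 67, 70 and 71 and 110, 72.8 and 86.3 CPM in CKO libraries 65, 68 and 72 (log2 difference 0.89 ± 0.13). S100a13 had 10.6, 12.5 and 13.2 CPM in WT and 16.5, 14.9 and 17.8 CPM in CKO cells (0.45 ± 0.13). The groups of these 2 genes did not overlap, as held for 16.5% of all genes with CKO higher, and those of the other 8 did.

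S100a4, S100a6 and Lgals3 varied widely among the CKO CD4 libraries. S100a4 had 19.3, 27.5 and 27.4 CPM in WT and 65.6, 24.5 and 41.6 CPM in CKO CD4 cells (log2 difference 0.83 ± 0.26), with CKO 68 inside the WT range. S100a6 had 16.8, 19.7 and 22.6 CPM in WT and 37.0, 19.7 and 27.3 CPM in CKO cells (0.51 ± 0.18), and Lgals3 had 4.997, 8.81 and 8.09 CPM in WT and 19.3, 5.96 and 16.01 CPM in CKO cells (0.92 ± 0.34). In all 3 genes CKO 65 was the highest library and CKO 68 the lowest CKO library. Among the spleen CD4 CKO libraries CKO 65 was the highest for 9 of the 10 genes and CKO 68 the lowest for all 10.

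Anxa2, with 30.4, 30.1 and 38.6 CPM in WT and 50.6, 25.5 and 36.9 CPM in CKO CD4 cells (log2 difference 0.20 ± 0.19), did not separate the genotypes. Ahnak had 684, 862 and 718 CPM in WT and 1072, 610 and 721 CPM in CKO CD4 cells (0.09 ± 0.16), and S100a11 was level at -0.03 ± 0.16. S100a10 stood at 0.24 ± 0.09 and Anxa1 at 0.48 ± 0.37. Without CKO 68 the number of the 10 genes past the threshold was 6 in spleen CD4 cells, and without CKO 72 or without any 1 of the 3 WT libraries it was 1. The share of all genes called is not given for these or other alternative fits, so such counts are not read as particular to the 10.

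CKO 65 and CKO 68 stood in the same order in CD8 cells, where CKO 65 was the highest CKO library for 8 genes and CKO 68 the lowest for 9. CD4 and CD8 libraries of a number share it in their titles and deviated together. In spleen CD8 cells the number of the 10 genes past the threshold lay between 6 and 9 when any 1 library was left out.

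The interaction fit over the 12 spleen libraries gave the CKO difference in CD8 cells minus that in CD4 cells. It was positive for 9 of the 10 genes, with a median of 0.92 against -0.0184 over 14958 genes tested. S100a6 (1.75 ± 0.28), Ahnak (1.07 ± 0.21) and Anxa2 (1.06 ± 0.26) were past the threshold, where 2.56% of all genes were called and 1.81% as higher. S100a4 (1.08 ± 0.47), Lgals3 (1.36 ± 0.46) and Lgals1 (0.60 ± 0.19) had positive differences that did not pass in this fit and did so with the replicate number as a block, which raised the number past the threshold from 3 to 6. S100a13 was level between the populations at -0.01. Both WT and CKO libraries of these fits are those that the genes were chosen on, so these values too describe the libraries.

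**Figure D3:**
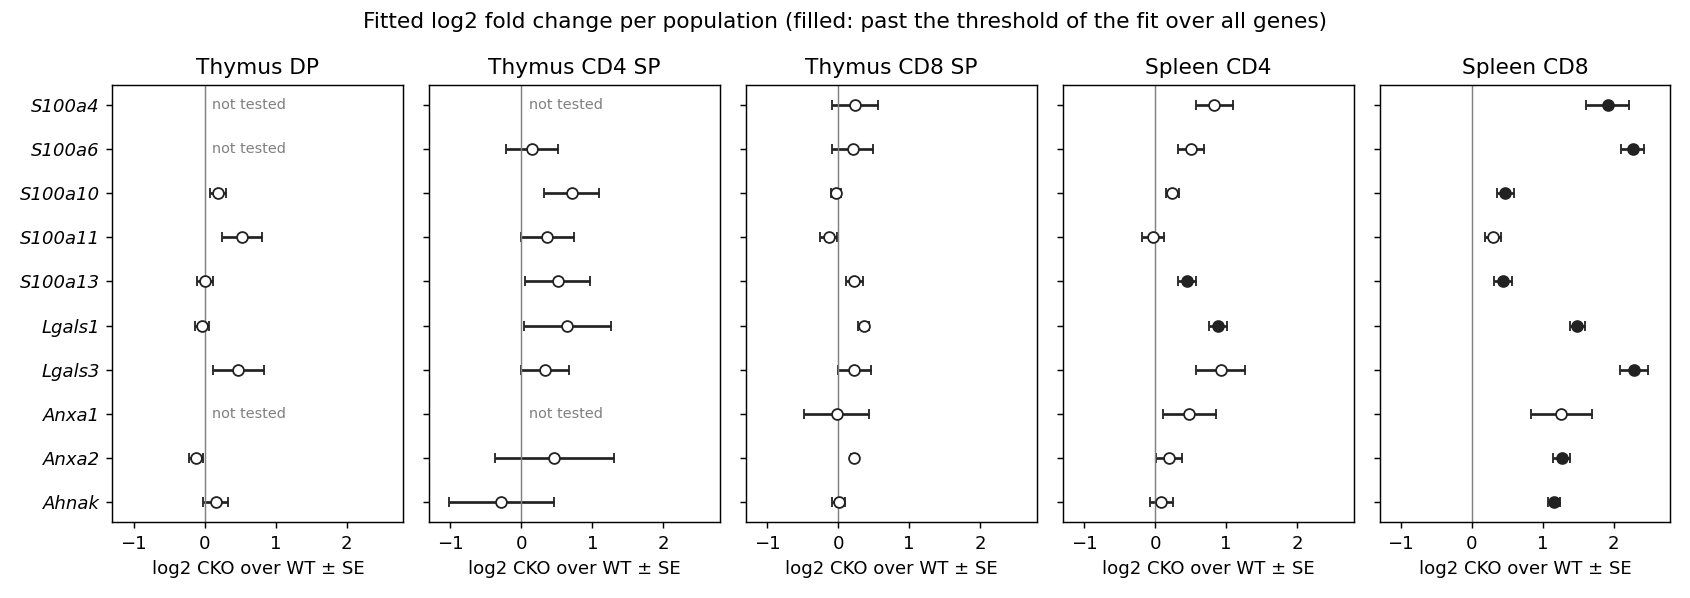
Log2 difference between CKO and WT for each gene in each population, with points for the edgeR estimate, bars for its SE from 6 libraries, and filled points where the fit over all genes passed the threshold. The filled points lie in spleen CD8 cells, where 8 genes pass, and in spleen CD4 cells, where 2 pass; S100a4, S100a6 and Anxa1 were not tested in 1 or 2 thymus populations.

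Markers of other cell states and types moved with these genes, and are counted here as higher or lower where they passed the threshold of the same edgeR fits. In spleen CD8 cells 20 of 21 effector and memory T cell markers were higher in CKO, with a summed count of 1974 to 2320 CPM in WT and 3264 to 4415 CPM in CKO libraries. Of 12 naive T cell markers 7 were lower, with sums of 6661 to 7103 CPM in WT and 5411 to 5789 CPM in CKO. The effector genes Il2rb, the interleukin 2 and 15 receptor beta chain, and Ccl5, a chemokine, had log2 differences of 0.50 ± 0.09 and 1.66 ± 0.20, and the naive-cell factor Tcf7 and the homing receptor Ccr7 had differences of -0.38 ± 0.08 and -0.69 ± 0.12. Of 9 regulatory T cell markers 6 were higher, with sums of 156 to 172 CPM in WT and 250 to 263 CPM in CKO. Of 7 natural killer markers tested 4 were higher, with sums of 172 to 206 and 271 to 399 CPM.

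Myeloid markers also differed. In spleen CD8 cells 6 of 14 tested were higher in CKO, with summed counts over all 20 of 58.2 to 79.6 CPM in WT and 123 to 173 CPM in CKO. Itgax, an integrin that effector CD8 cells can also carry, made up most of that difference at 16.2 CPM in WT and 73.7 CPM in CKO, and Ly6g was at 0 in all spleen libraries. In spleen CD4 cells all 14 tested were higher, with sums of 112 to 154 CPM in WT and 176 to 371 CPM in CKO. Csf1r, the macrophage growth factor receptor, stood there at 23.9 CPM in WT and 58.3 CPM in CKO, and Lyz2 at 9.20 and 22.2 CPM. The sums in CD4 CKO libraries 65, 68 and 72 were 270, 176 and 371 CPM, so the lowest library was CKO 68, as for the 10 genes, and the highest was CKO 72. In CD4 cells 6 of 21 effector and memory markers were higher and 2 lower in CKO, with sums of 1561 to 1802 CPM in WT and 1284 to 2156 CPM in CKO, and 5 of 9 regulatory markers were lower, with sums of 845 to 1002 and 599 to 671 CPM. Of 12 naive markers 4 were higher and 1 lower in CKO CD4 cells, and their sum was above WT, at 6586 to 6809 CPM in WT and 7025 to 7301 CPM in CKO, where in CD8 cells it was below. Of 10 B cell markers 1 was called in each population, Cd22, with a log2 difference of 1.54 ± 0.14 in CD8 and -1.12 ± 0.21 in CD4 cells. The summed B cell markers were 37.6 to 44.6 CPM in WT and 57.1 to 74.2 CPM in CKO CD8 cells, and 34.0 to 52.7 and 21.8 to 30.9 CPM in CD4 cells. The part of effector, naive, regulatory, natural killer, myeloid or B cells in the CKO differences of the 10 genes was not tested.

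In the thymus none of the 10 genes was past the threshold between CKO and WT. In DP cells 7 of the 10 could be tested, and their log2 differences lay between -0.12 for Anxa2 and 0.53 ± 0.28 for S100a11, while 0.0258% of 11634 genes were called. All 7 had overlapping groups, while 6.58% of all genes had all CKO above all WT libraries and 5.47% the reverse. Anxa2 had 378, 414 and 470 CPM in WT and 404, 340 and 419 CPM in CKO libraries 14, 17 and 23, and Lgals1 had 146, 173 and 187 CPM in WT and 171, 151 and 173 CPM in CKO. S100a6 and Anxa1 were too low to test there, and S100a4 had no counts.

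In thymus CD8 SP cells all 10 genes were tested and 0.114% of 14911 genes were called. Lgals1 had 86.3, 71.8 and 69.3 CPM in WT libraries 1, 2 and 3 and 93.6, 99.9 and 99.6 CPM in CKO libraries (log2 difference 0.36 ± 0.08). Anxa2 had 279, 278 and 263 CPM in WT and 322, 328 and 312 CPM in CKO libraries (0.22 ± 0.04). Neither passed the threshold in the edgeR fit and both did with DESeq2, and the groups of Lgals1, Anxa2 and S100a13 did not overlap, which 8.85% of all genes showed in that direction. In this population the summed count of the DP thymocyte markers was 2262 to 2582 CPM in WT and 2638 to 2905 CPM in CKO. Both genes were also higher in DP than in CD4 SP cells, as given above for WT. The part of less mature cells, and of the sexes, which are unevenly spread here, was not separated from the genotype: with sex as a covariate the differences were 0.29 for Lgals1 and 0.22 for Anxa2, and neither passed.

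In thymus CD4 SP cells 8 of the 10 could be tested and none passed, and no gene of 11839 did in the edgeR fit, with 306 genes at an unadjusted p under 0.05. The CKO libraries stood far apart from each other. Anxa2 had 180, 165 and 241 CPM in WT libraries 15, 18 and 24 and 543, 37.3 and 160 CPM in CKO libraries 14, 17 and 23. CKO 14 exceeded every DP library, and CKO 17 was far below every other thymus library. Lgals1 had 85.4, 85.5 and 111 CPM in WT and 271, 54.6 and 81.6 CPM in CKO. Ahnak had 54.1, 45.9 and 45.9 CPM in WT and 5.38, 37.1 and 75.8 CPM in CKO. It was lowest in CKO 14, below every DP library, and highest in CKO 23, while CKO 17 lay below every WT CD4 SP library.

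The summed DP marker count stood in the same order as Anxa2 and Lgals1, at 5065, 225 and 2327 CPM in CKO libraries 14, 17 and 23. It was 2216 to 4057 CPM in WT CD4 SP and 6322 to 8180 CPM over all DP libraries. Without CKO 14 the log2 difference of Anxa2 between CKO and WT changed from 0.46 ± 0.84 to -0.98 and that of Lgals1 from 0.65 ± 0.61 to -0.46. For S100a13 it changed from 0.51 ± 0.46 to -0.23, for S100a11 from 0.37 ± 0.38 to -0.040 and for Ahnak from -0.29 ± 0.74 to 0.22. The sign of the difference thus turned for 5 of the 8 genes. For S100a10 it stayed positive, at 0.71 ± 0.38 and 0.13, as it did for S100a6 and Lgals3.

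**Figure D4:**
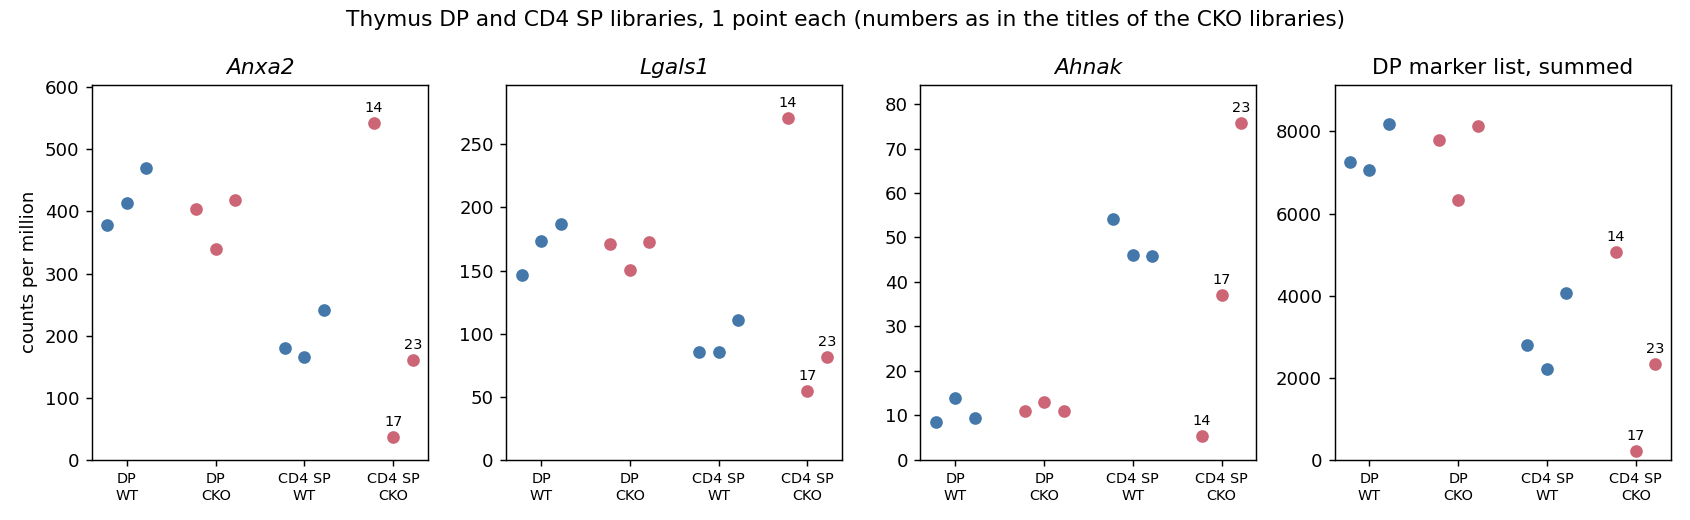
CPM of Anxa2, Lgals1 and Ahnak, and the summed count of 10 DP thymocyte markers, in each of the 12 thymus DP and CD4 SP libraries, WT in blue and CKO in red, with CKO CD4 SP points labelled by the number in the title. CKO 14 lies at 543 for Anxa2 and 5.38 for Ahnak, and CKO 17 at 37.3 for Anxa2 and 225 for the DP markers.

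The rest of the 3 families was mostly low or level in spleen. Of 12 other genes with S100 symbols, 2 passed the filter on low counts in spleen CD4 and CD8 cells, S100a1 and S100pbp. Neither was past the threshold between CKO and WT. S100pbp on this list and Lgals3bp on the galectin list are named as binding proteins and not as family members. S100a8 and S100a9, which neutrophils and monocytes carry in large amounts, had group means of at most 0.32 CPM in the spleen. Of the other galectins, Lgals4 was higher in CKO in both spleen populations, with 13.2 CPM in WT and 33.4 CPM in CKO CD4 cells (log2 difference 1.35 ± 0.09) and 12.2 and 26.8 CPM in CD8 cells (1.11 ± 0.13). Lgalsl was higher in CKO CD8 cells (0.98 ± 0.17), and in CD4 cells it had 4.77 to 4.93 CPM in WT and 2.801 to 4.29 CPM in CKO libraries (-0.51 ± 0.23), without overlap and short of the threshold. Lgals9, Lgals8 and Lgals3bp had differences between -0.17 and 0.16 that did not pass.

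Among the other annexins, Anxa4 was higher in CKO CD8 cells, at 1.63 CPM in WT and 4.66 CPM in CKO (log2 difference 1.49 ± 0.26). In CD4 cells Anxa4 had 2.42 to 3.46 CPM in WT and 4.03 to 5.14 CPM in CKO libraries, without overlap. Anxa6 was higher in both populations by a small amount (0.20 ± 0.06 in CD4 and 0.25 ± 0.07 in CD8 cells). Anxa5, Anxa7 and Anxa11 did not pass in either population. Outside the 10, 2 of 5 tested genes of the galectin list were higher in CKO CD8 cells, where 9.83% of all genes were. The counts were 2 of 6 for the annexin list and 0 of 2 for the S100 list.

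The 10 genes varied together over the spleen libraries. Over 45 pairs of genes, the median Pearson correlation of log2 CPM was 0.70 over the 12 libraries, ranging from -0.0040 to 0.95, and it was 0.77 within the 6 CD4 and 0.91 within the 6 CD8 libraries. These libraries share title numbers, genotype and population. Each set held both WT and CKO libraries, and the genes were chosen on the difference between them. Part of the correlation thus follows from that choice, and the values are a description. Among 9048 genes with at least 5 CPM on average, the 6 whose log2 CPM followed the mean standardised profile of the 10 most closely over 12 libraries were Bub1b (r = 0.973), Tpx2 (0.972), Ube2c (0.969), Kif18b (0.968), Espl1 (0.964) and Kif11 (0.958). All are known for work in mitosis: Bub1b in the spindle checkpoint, Tpx2, Kif11 and Kif18b in the spindle, Ube2c in the ubiquitin ligase that starts anaphase and Espl1 as the protease that separates chromatids. They are the top of a longer list, since 56 of the 9048 genes had r over 0.9. The profile carries the CKO difference on which the 10 were chosen. Within the CD4 libraries r of these 6 was at least 0.9004, and within the CD8 libraries at least 0.974. Both sets are parts of the 12 libraries that ranked the genes, so they are no separate check. Bub1b had 8.50 ± 0.41 CPM in WT and 19.2 ± 3.04 CPM in CKO CD8 cells, and Kif11 had 14.2 ± 1.22 and 42.9 ± 10.2 CPM (SD, n = 3).

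**Figure D5:**
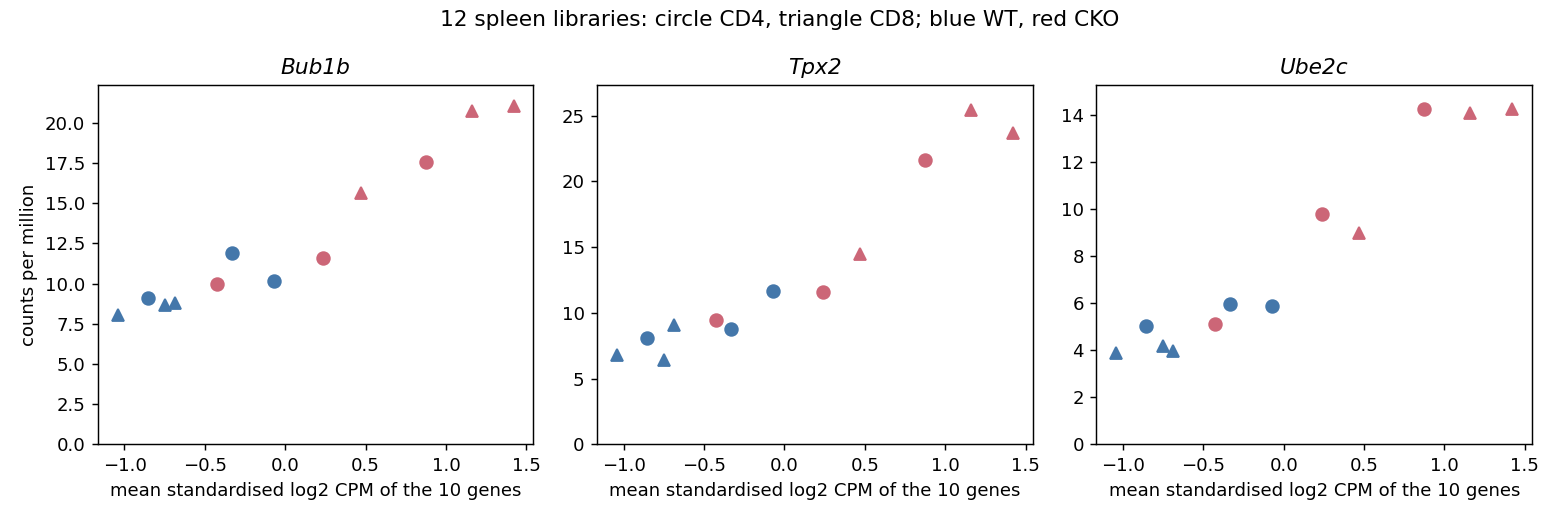
CPM of Bub1b, Tpx2 and Ube2c against the mean standardised log2 CPM of the 10 genes in 12 spleen libraries, circles for CD4, triangles for CD8, blue for WT and red for CKO. The points rise from the WT CD8 libraries to CKO CD8 65, and r is 0.973, 0.972 and 0.969.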

How the data were processed

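The authors deposited raw read counts per gene for 30 libraries in 3 tables. Reads were aligned and counted with HISAT2 and HTSeq on GRCm38, per the submitters' processing notes; the sources used here give no versions, annotation or strand setting. The kit marks strand, per the labels' protocols. Without the strand setting, reads of Anxa2 and of the antisense gene Gm16144, which shares 98 of its exon bases, cannot be told apart. The pseudogene Lgals1-ps2 held 64 to 137 counts per spleen library, against 1067 to 3634 for Lgals1.

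Each comparison was fitted over all genes of its 6 libraries (12 for the interaction) with edgeR 4.0.16 in R 4.3.3: filterByExpr, TMM, quasi-likelihood test, Benjamini-Hochberg adjustment, threshold 0.05. SE is the log2 difference divided by the square root of F. The code was tested on simulated data. Alternatives used DESeq2 1.42.0, voom in limma 3.58.1, other filters, scaling and covariates, and each library left out. Correlations used log2 of CPM plus 0.5. Each printed promoter window ends before the GENCODE start of its own gene, and the windows were not compared with exons of other gene models.

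The genes and all lists were chosen with earlier results of these data known. Named beside them are Prmt5, the most abundant or called genes of the other family lists, the most abundant markers, markers at 0, and the 6 genes most like the 10; coreceptors and further markers (Ccl5, Ccr7, Itgax, Lyz2, Cd22, S100a8, S100a9) were named after their values were seen. Spleen CD4 and CD8 samples, and thymus DP and CD4 SP samples, share numbers in the titles, which do not say that a number is an animal. In spleen, libraries of a number deviated together (r from 0.276 to 0.344 in CKO and 0.115 to 0.177 in WT). Those of WT thymus DP and CD4 SP cells did so too (r from 0.0971 to 0.215). The main fits did not use the number as a pairing, and fits with it as a replicate block are given as alternatives. No label says that replicates are separate mice. In the thymus DP, CD4 SP and CKO CD8 SP groups, libraries read as different sexes, so each of these groups holds more than a single animal. The other groups do not settle this, and p-values measure the spread between these samples, which may be partly technical. No pair of libraries of a group agreed within sampling noise (30 pairs, chi-square per degree of freedom at least 6.2).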

Additional observations from a re-analysis of the deposited data

Results flagged for a closer look

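The CKO difference was larger in spleen CD8 than in spleen CD4 cells for 3 genes, by the interaction term of the edgeR fit over 12 libraries: S100a6 by 1.75, Ahnak by 1.07 and Anxa2 by 1.06 on the log2 scale. S100a6 and Ahnak were past the threshold under all 18 alternatives. Anxa2 was past it under 8 of 18, and its difference lay between 0.86 and 1.18 where a library was left out and the threshold was missed. These contrasts are among those on which the genes were chosen.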

How the results depend on the processing

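The numbers of the 10 genes past the threshold took these values under the alternatives. The share of all genes called under each alternative is not given, so a changed number is not read as particular to the 10. Between CKO and WT in thymus CD8 SP cells, 0 became 2 with DESeq2 and 2 with no filter on low counts, and 0 to 1 with 1 library left out (1 without WT 1). In spleen CD4 cells, 2 became 6 with no filter and 1 to 6 with 1 library left out. In spleen CD8 cells, 8 became 6 to 9 with 1 library left out. Between WT CD4 SP and DP thymocytes, 5 became 3 with a filter of 5 CPM in 3 libraries, 3 in the fit to all 12 libraries (without Lgals1 and Anxa2), and 5 to 6 with 1 library left out. Between WT spleen CD8 and CD4 cells, 4 became 3 to 5 with 1 library left out. The interaction in spleen gave 3, then 6 with no filter, 6 with the title number as a replicate block, and 2 to 4 with 1 library left out. The lowest r of the 6 genes most like the 10 was 0.958. It was 0.9004 within CD4 and 0.974 within CD8 libraries, which are parts of the 12 that ranked the genes. Apart from the fits that leave out libraries or use fewer genes, the cause was not tested. S100a11 between WT spleen CD8 and CD4 cells, at -0.0058, changed sign to 0.018 with voom, 0.0041 with all 12 libraries, 0.0089 with the number as a block, and ranged from -0.095 to 0.193 with 1 library left out (positive without CD8 WT 70, CD8 WT 71 or CD4 WT 71). S100a10 between WT CD4 SP and DP cells, at 0.02, ranged from -0.068 to 0.065 with 1 library left out (negative without DP WT 18 or CD4 SP WT 24). Anxa1 in WT spleen missed the threshold in 6 of 12 alternatives. In spleen CD8 cells S100a10 was past the threshold in 9 of 12 alternatives and S100a13 in 7 of 12. WT DP and CD4 SP libraries of a number also deviated together (r from 0.0971 to 0.215, against -0.115 to 0.00806 between different numbers). With the title number as a replicate block, 5 genes were still past the threshold. In thymus CD8 SP cells WT and CKO samples share only a number (r from 0.0529 to 0.127), and with it as a replicate block 0 genes passed. With few reads, as for Anxa1, depth limits what can be seen.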
